A study of Mus musculus with 8 samples.

Results

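Neurotrophins are small secreted proteins that keep neurons alive and shape their axons, dendrites and synapses. They are made as precursors that proteases cut into the mature form, and each mature ligand binds a preferred receptor tyrosine kinase of the Trk family, which signals through the Ras-MAPK, PI3K-Akt and PLCγ cascades. All neurotrophins also bind the p75 neurotrophin receptor (p75NTR), which has no kinase domain and can promote survival or death depending on its partners. In the hippocampus, BDNF and its receptor TrkB are best known for dendrite growth and synaptic plasticity, and NT-3 and its receptor TrkC are present there from embryonic stages. The 5 genes described here are the ligand genes Bdnf (BDNF) and Ntf3 (NT-3) and the receptor genes Ngfr (p75NTR), Ntrk2 (TrkB) and Ntrk3 (TrkC). They were chosen by name from the count table, and all 5 were found among its 16397 genes.

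Hippocampi were dissected at embryonic day 15.5 (E15.5) from C57Bl/6J embryos whose dams had received a micro-osmotic pump at E12.5. In the IUGR (intrauterine growth restriction) group the pump held U-46619, a thromboxane A2 analog that raises maternal blood pressure, and in the sham group it held vehicle alone, which contained ethanol. Each group had 4 samples, and embryos of both sexes were used, but the labels do not give the sex or the dam of a sample. Sample names begin with T1 throughout the IUGR group and with S1 or S3 in the sham group; what this prefix means is not given, so that prefix and group cannot be told apart.

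Total counts per library were between 11212632 and 16672463, and the ranges of the groups overlapped. The forebrain and hippocampal markers Emx1, Emx2, Zbtb20 and Prox1 were detected in all 8 libraries, as were markers of choroid plexus, meninges, blood vessels and GABAergic neurons, so the tissue held more than hippocampal neurons. T1-3 stood apart from the other libraries in markers of meningeal fibroblasts, which summed to 2790 CPM (read counts scaled to library size) in T1-3 and to between 77.7 and 807 CPM in the other libraries. It stood apart also in 6 markers of Schwann and neural crest cells, which summed to 71.8 CPM in T1-3 and to between 8.17 and 18.5 CPM elsewhere. Choroid plexus markers summed to between 56.5 and 1330 CPM under IUGR, against between 5620 and 12300 CPM in the sham group. In bulk tissue, fewer cells of a type and less RNA per cell cannot be told apart.

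None of the 5 neurotrophin and receptor genes passed the test for a difference between IUGR and sham hippocampi. Of 13707 protein-coding genes tested with edgeR's quasi-likelihood test, 1.46% were called, that is, had an adjusted p no higher than 0.05 together with a change of 2-fold or more, up or down. Of the 5 genes, 0 were called, 0 had an unadjusted p under 0.05 (11.1% of all tested genes did) and 0 had groups that did not overlap in CPM (7.14% of all tested genes did). The counts of called members and of members with an unadjusted p under 0.05 were also 0 with the Wald test of DESeq2. The log2 fold change was negative for 3 of the genes and positive for 2, with a median of −0.10, and the median of all tested genes was −0.02. What the data allow differs from gene to gene. The 95% intervals of the fold changes of Ntrk2 and Ntrk3 lay within a 2-fold change in either direction, whereas those of Bdnf and Ntf3 reached past a 2-fold decrease and that of Ngfr past a 2-fold increase.

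**Figure D1:**
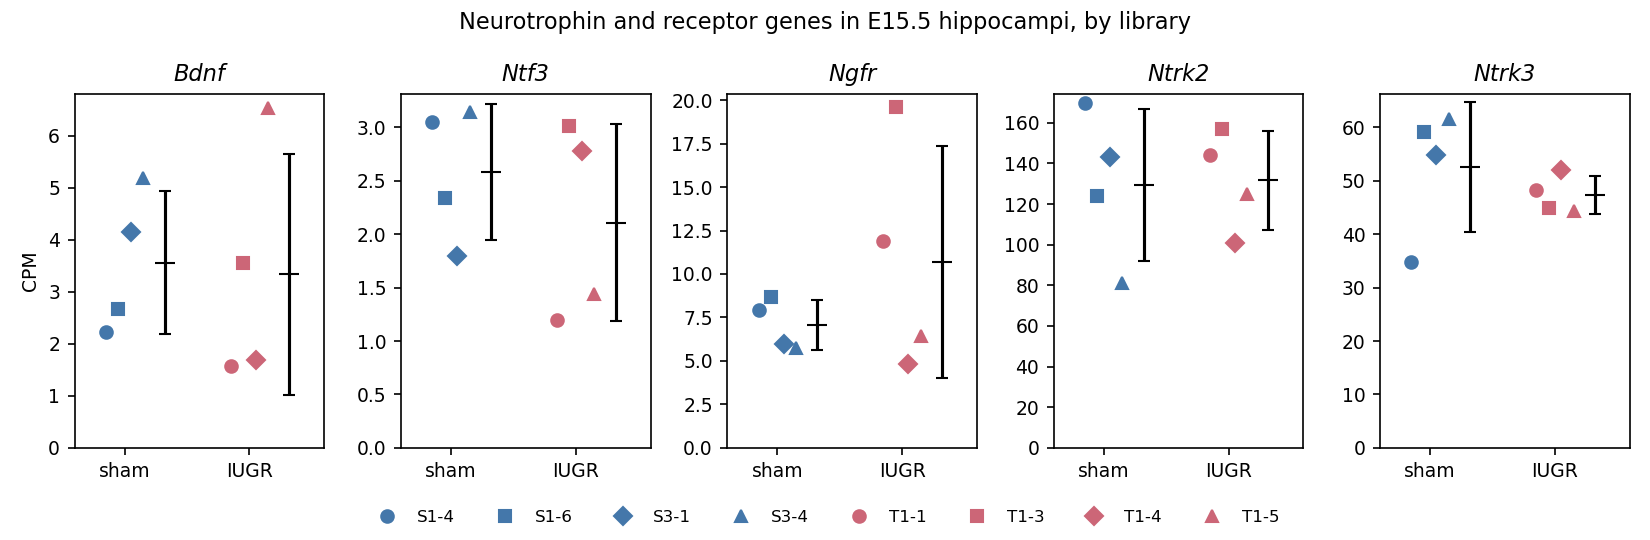
CPM of Bdnf, Ntf3, Ngfr, Ntrk2 and Ntrk3 (1 panel each, linear axes from 0) in the 4 sham (blue) and 4 IUGR (red) hippocampi. Each symbol is a library and the black bars are the group mean ± SD; the groups overlap in every panel, and T1-3 has the highest Ngfr value at 19.6 CPM.

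Bdnf (chromosome 2, 109674700 to 109727007, plus strand, GRCm38) encodes the ligand of TrkB. Transcription of this gene starts at several promoters, each joined to its own first exon, and the annotation lists 11 coding transcripts; the deposited counts are 1 number per gene and do not separate them. RefSeq (GRCm38.p6) windows of 300 bases, from 250 before to 50 after a transcription start, were at hand for 7 Bdnf starts, 2 Ntf3 starts, 1 Ngfr start and 1 Ntrk2 start. They were searched on both strands for the cAMP response element TGACGTCA, bound by CREB, and for the variant TCACGTCA; the words differ, so the same 8 bases cannot match both. Of these 11 windows, 1 held either word, against 2.21% of all 32851 windows. That Bdnf window is printed since neuronal activity acts on Bdnf transcription through such elements, with the match in capitals, starting 38 bases before the transcription start. A match describes the letters only, and no binding was measured.

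Bdnf window, chr2:109692186-109692485, plus strand: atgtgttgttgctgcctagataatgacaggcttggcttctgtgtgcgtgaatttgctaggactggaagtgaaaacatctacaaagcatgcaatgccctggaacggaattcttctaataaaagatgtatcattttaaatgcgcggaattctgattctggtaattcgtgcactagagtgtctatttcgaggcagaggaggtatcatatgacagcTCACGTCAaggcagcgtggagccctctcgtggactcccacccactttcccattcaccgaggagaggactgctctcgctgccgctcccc

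Bdnf was expressed at a low level, with 20 to 86 reads per library. Its expression was 1.57 (T1-1), 3.56 (T1-3), 1.69 (T1-4) and 6.54 CPM (T1-5) in IUGR hippocampi. In sham hippocampi it was 2.22 (S1-4), 2.68 (S1-6), 4.16 (S3-1) and 5.20 CPM (S3-4). The highest and the lowest value of the series both belonged to the IUGR group, and the S1 samples were lower than the S3 samples. The group means were 3.34 ± 2.32 CPM under IUGR and 3.57 ± 1.37 CPM in the sham group (SD, n = 4 each). The log2 fold change was −0.10 (standard error, SE, 0.48, 95% interval −1.16 to 0.96; edgeR adjusted p = 1.00), and a two-sided exact permutation test on log2 CPM gave p = 0.657. The sign of this difference depended on single libraries: it was −0.64 without T1-5, but 0.16 without T1-1, 0.12 without T1-4 and 0.14 without S3-4. Against the S1 sham samples alone it was 0.45 and against the S3 samples alone −0.47, neither past the threshold. A 2-fold decrease of Bdnf lay within the interval of these data.

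Ntf3 (chromosome 6, 126101412 to 126166910, minus strand) encodes NT-3, the ligand of TrkC. It had the fewest reads of these genes, 16 to 49 per library. The IUGR values were 1.20 (T1-1), 3.01 (T1-3), 2.78 (T1-4) and 1.44 CPM (T1-5), and the sham values were 3.05 (S1-4), 2.34 (S1-6), 1.80 (S3-1) and 3.14 CPM (S3-4). T1-1 and T1-5 lay below every sham sample, whereas T1-3 and T1-4 lay within the sham range. The means were 2.11 ± 0.919 CPM under IUGR and 2.58 ± 0.630 CPM in the sham group (SD, n = 4 each), which is a log2 difference of −0.29 (SE 0.37, 95% interval −1.11 to 0.54, edgeR adjusted p = 1.00; two-sided exact permutation p = 0.314). The log2 fold change was negative in all 15 alternative fits, with no call in any of them, but its size moved with single libraries, to −0.06 without T1-1 and −0.48 without T1-3.

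Ngfr (chromosome 11, 95568818 to 95587735, minus strand) encodes p75NTR, the receptor shared by all neurotrophins, which is also a marker of neural crest and Schwann cells. It had the largest difference of the 5 genes. Expression was 11.9 (T1-1), 19.6 (T1-3), 4.80 (T1-4) and 6.46 CPM (T1-5) in IUGR hippocampi, and 7.95 (S1-4), 8.66 (S1-6), 5.96 (S3-1) and 5.77 CPM (S3-4) in sham hippocampi. T1-3 and T1-1 were above every sham sample and T1-4 was below every sham sample. The means were 10.7 ± 6.67 CPM under IUGR and 7.09 ± 1.44 CPM in the sham group (SD, n = 4 each), so that the coefficient of variation was 62.4% in the IUGR and 20.3% in the sham group. The log2 fold change was 0.60 (SE 0.40, 95% interval −0.28 to 1.49, edgeR adjusted p = 0.774; two-sided exact permutation p = 0.457). Without T1-3 it was 0.16.

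The library with the most Ngfr reads was the one that stood apart in cell markers. In T1-3, Sox10, a transcription factor of neural crest and Schwann cells, had 181 reads, against 5 to 25 in the other libraries, and Foxd3, an early neural crest factor, had 65, against 0 to 5. Of the 6 genes of this list, 3 passed the count filter, and all 3 had positive log2 fold changes (2.24 for Sox10 and 1.12 for Erbb3, a neuregulin receptor gene, among them) with no call. Apart from T1-3, the sum of the list was 8.17 to 18.5 CPM in the IUGR samples, a range that holds the 9.18 to 13.1 CPM of the sham samples. Of 10 meningeal fibroblast genes, 9 had positive log2 fold changes and 0 were called; of all tested genes, 1.46% were called. T1-1, which had the second highest Ngfr value, had 9.59 CPM of the Schwann and neural crest markers and 402 CPM of the meningeal markers, both within the range of the sham samples (324 to 635 CPM for the latter). T1-4, which had the lowest Ngfr value, also had the lowest sum of both lists (8.17 and 77.7 CPM). The part of these cells in the Ngfr values was not tested.

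**Figure D2:**
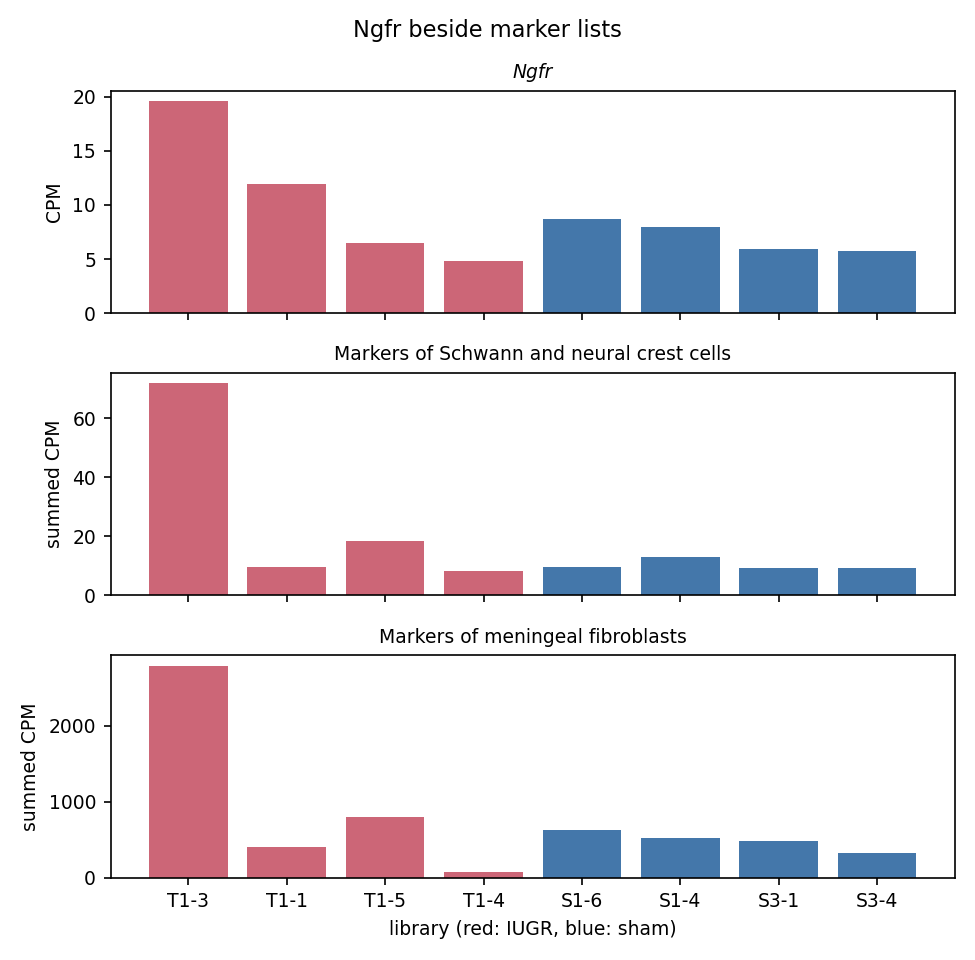
CPM of Ngfr (top) and summed CPM of 6 Schwann and neural crest cell markers (middle) and 10 meningeal fibroblast markers (bottom) in each library, with IUGR in red and sham in blue and libraries in order of Ngfr within each group. T1-3 is the highest library in all 3 panels, and T1-1 has the second highest Ngfr value without a high marker sum.

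Ntrk2 (chromosome 13, 58806569 to 59133970, plus strand) encodes TrkB, the receptor of BDNF. Its annotation holds full-length and shortened coding transcripts (7 in all), and the counts sum over them, so kinase-bearing and truncated receptors could not be separated. Ntrk2 was the most abundant of the 5 genes, with 1136 to 2553 reads per library. The IUGR values were 144 (T1-1), 157 (T1-3), 101 (T1-4) and 125 CPM (T1-5), and the sham values were 170 (S1-4), 124 (S1-6), 143 (S3-1) and 81.0 CPM (S3-4). Every IUGR value lay between the lowest and the highest sham value. The means were 132 ± 24.2 CPM under IUGR and 129 ± 37.3 CPM in the sham group (SD, n = 4 each), a fold change of 1.02 (95% interval 0.73 to 1.43; edgeR adjusted p = 1.00; two-sided exact permutation p = 0.80). On the log2 scale this is 0.03 (SE 0.22), and the sign turned when T1-3 or S3-4 was left out.

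Ntrk3 (chromosome 7, 78175959 to 78738012, minus strand) encodes TrkC, the receptor of NT-3. Expression was 48.3 (T1-1), 44.9 (T1-3), 52.0 (T1-4) and 44.3 CPM (T1-5) in IUGR hippocampi, and 34.8 (S1-4), 59.2 (S1-6), 54.9 (S3-1) and 61.6 CPM (S3-4) in sham hippocampi. All 4 IUGR samples were below S1-6, S3-1 and S3-4 and above S1-4. The IUGR values were the least variable of the 5 genes, with a coefficient of variation of 7.46%, against 23.1% in the sham group. The means of 47.4 ± 3.53 CPM under IUGR and 52.6 ± 12.2 CPM in the sham group (SD, n = 4 each) gave a fold change of 0.90 (95% interval 0.684 to 1.18; log2 −0.15, SE 0.18; edgeR adjusted p = 1.00; two-sided exact permutation p = 0.571). Without S1-4 the log2 fold change was −0.28, with an adjusted p of 0.658 from edgeR. Gm9885, an antisense gene within Ntrk3, had 35 to 90 reads, and whether reads were counted by strand is not given in the sources used here.

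The levels of the 5 genes were compared with each other per kilobase of exon, since longer transcripts collect more reads. With all annotated exons of a gene as its length, the sham means were 6.71 ± 1.93 CPM per kilobase for Ntrk2, 2.06 ± 0.417 for Ngfr, 1.74 ± 0.404 for Ntrk3, 1.51 ± 0.368 for Ntf3 and 0.574 ± 0.220 for Bdnf (SD, n = 4 each). Ntrk2 was the highest and Bdnf the lowest in each sham sample, and the neighbours Ngfr, Ntrk3 and Ntf3 did not differ beyond their spread. In IUGR hippocampi the means were 6.84 ± 1.25 for Ntrk2, 3.10 ± 1.94 for Ngfr, 1.57 ± 0.117 for Ntrk3, 1.23 ± 0.536 for Ntf3 and 0.537 ± 0.373 CPM per kilobase for Bdnf (SD, n = 4 each), with Ntrk2 again highest in each sample. Bdnf was the lowest in each IUGR sample except T1-5, where it was 1.05 and Ntf3 was 0.843 CPM per kilobase. With the longest coding transcript as the length, Ntrk3 came before Ngfr in sham hippocampi (2.67 and 2.06 CPM per kilobase), so the order of these genes rests on the length chosen. Ntrk2 was above Bdnf in every library, whereas Ntf3 was above Ntrk3 in T1-3 (1.76 and 1.49 CPM per kilobase) and in S1-4 (1.78 and 1.16) and below it in the other libraries.

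**Figure D3:**
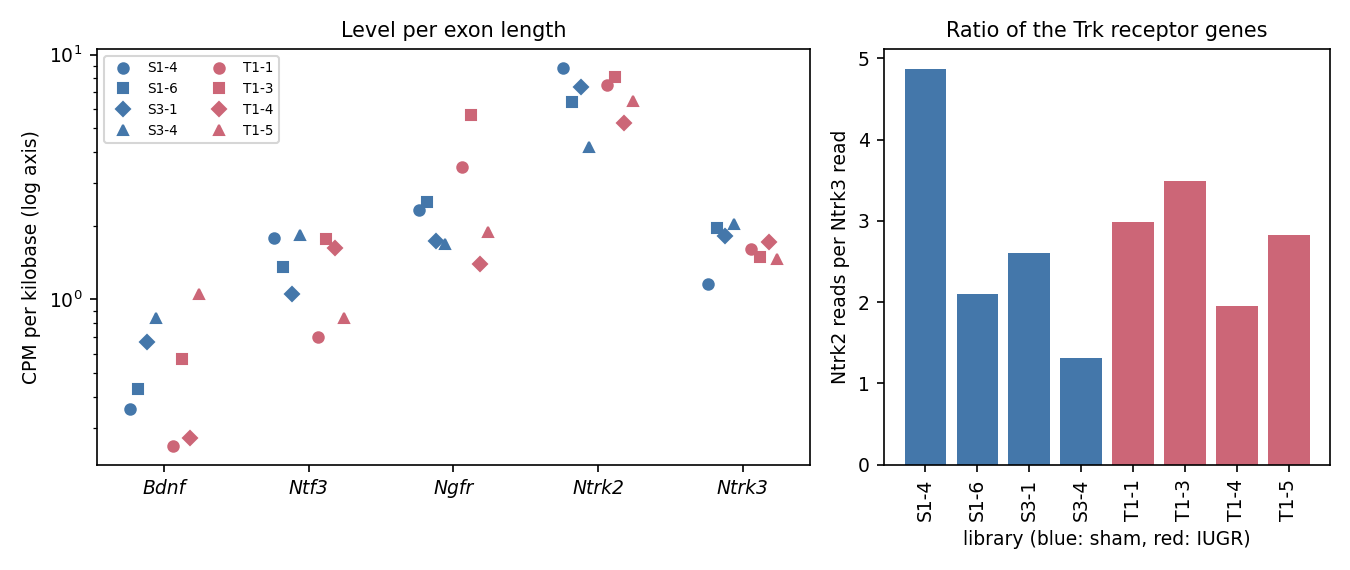
Left, CPM per kilobase of all annotated exons for the 5 genes in each library, on a log axis (sham in blue, IUGR in red). Right, Ntrk2 reads per Ntrk3 read in each library; S1-4 (4.87) and S3-4 (1.31), both sham, are the highest and the lowest.

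The balance of the Trk receptor genes varied more within the sham group than between groups. There were 4.87 Ntrk2 reads per Ntrk3 read in S1-4, 2.10 in S1-6, 2.60 in S3-1 and 1.31 in S3-4. In IUGR hippocampi the ratio was 2.99 (T1-1), 3.49 (T1-3), 1.95 (T1-4) and 2.83 (T1-5), within the sham range, and no difference between the groups was found (two-sided exact permutation test on the log2 ratio, p = 0.686). S1-4 had the highest Ntrk2 and the lowest Ntrk3 value of the series, and S3-4 the reverse. The sham extremes differed also in other markers: 9 genes of hippocampal neurons and the granule lineage summed to 884 CPM in S1-4 and 1720 CPM in S3-4, and 9 markers of GABAergic neurons to 999 and 475 CPM. The GABAergic sum did not follow the ratio in every library, since it was lowest in S3-1 (432 CPM, ratio 2.60) and highest in T1-4 (1070 CPM, ratio 1.95). Their part in the ratio was not tested.

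For each gene, the 3 genes with the most similar pattern were those with the smallest root mean square difference of mean-centred log2 CPM over the 8 samples, among tested genes whose mean count was 50 or more. For Bdnf they were Pde1a, a phosphodiesterase gene (0.173), Cpne4 (0.237) and Cdkl2 (0.333), against a root mean square of 0.67 for Bdnf about its own mean. For Ngfr they included Svil (0.193), highest in T1-3 and lowest in T1-4, and Esyt1 (0.227), highest in T1-3 and lowest in S3-4. For Ntrk2 they were Pck2 (0.151), Slc31a2 (0.153) and Txnip (0.165). The genes closest to Ntrk3 were Zfp593 (0.112), Slc9a8 (0.117) and Slc37a3 (0.121), and those closest to Ntf3 were the kainate receptor gene Grik4 (0.257), Fkbp2 (0.259) and Atp6v0c (0.268). All these values are differences on the log2 scale, and they describe these 8 libraries only.

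Ntf5, the gene of NT-4, was not found under that name in the count table and so was not analysed. The sortilin family holds receptors that bind neurotrophin precursors or steer the trafficking of neurotrophins and their receptors. Of its 5 tested genes, 0 were called, against 1.46% of all tested genes. Sort1, which encodes sortilin, the coreceptor of p75NTR for precursors, averaged 204 ± 29.2 CPM under IUGR against 222 ± 21.4 CPM in the sham group (SD, n = 4 each; log2 fold change −0.12). Sorcs1 was at 29.2 ± 8.07 and 18.9 ± 5.56 CPM (SD, n = 4 each), which is a log2 difference of 0.63 (SE 0.26, edgeR adjusted p = 0.394). The log2 fold changes of Sorcs2, Sorcs3 and Sorl1 were −0.01, 0.64 and 0.22 (SE 0.28, 0.34 and 0.19), and the sign of Sorcs2 turned with the normalization.

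Of the 8 tested genes that cut or clear neurotrophin precursors and related proteins, 1 was called, against 1.46% of all tested genes. Pcsk6 (chromosome 7, 65861734 to 66050386), which encodes a secreted proprotein convertase with many substrates, fell in IUGR hippocampi. Its expression was 12.8 (T1-1), 12.7 (T1-3), 10.9 (T1-4) and 17.5 CPM (T1-5) in IUGR and 35.9 (S1-4), 39.4 (S1-6), 22.7 (S3-1) and 53.0 CPM (S3-4) in sham hippocampi. Every IUGR sample was below every sham sample, with a log2 fold change of −1.49 (SE 0.26, edgeR adjusted p = 0.0239). When the 8 samples were left out 1 at a time, the call held in 3 cases and was lost without T1-1, T1-4, S1-4, S1-6 or S3-4, with adjusted p values of 0.0731, 0.0559, 0.0829, 0.0527 and 0.061 from edgeR. Over these 8 fits the log2 fold change of Pcsk6 ranged from −1.67 to −1.28. In the same samples, 8 markers of the cortical hem, the signalling centre beside the hippocampal primordium, summed to 45.6 to 105 CPM under IUGR, against 222 to 381 CPM in the sham group, and 6 of the 8 were called lower; the part of this tissue in the Pcsk6 values was not tested. The other tested genes of this list were not called, and Cpe, a carboxypeptidase that trims and sorts precursors, had a log2 fold change of 0.25.

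Downstream of the receptors, 0 of 40 genes for Trk adaptors and kinase cascades were called, against 1.46% of all tested genes, and their median log2 fold change was 0.01. Frs3, an adaptor that docks on activated Trk receptors, had no overlap between the groups (the only gene of the 40, against 7.14% of all tested genes), with 14.1 to 19.6 CPM under IUGR against 9.15 to 13.1 CPM in the sham group, with a log2 fold change of 0.68 (SE 0.19, edgeR adjusted p = 0.116). Kidins220, a membrane scaffold bound by Trk receptors and p75NTR, had a log2 fold change of 0.37 (SE 0.13, edgeR adjusted p = 0.26). The Wald test of DESeq2 gave adjusted p values of 0.0167 for Frs3 and 0.0487 for Kidins220, both with a change below 2-fold and so not called. Of 20 tested p75NTR partners and effectors, 0 were called, with a median log2 fold change of −0.03; Adam17, a protease that sheds p75NTR, had a log2 fold change of −0.32 and Bex1 one of 0.36, and for both the groups did not overlap, as in 7.14% of all tested genes.

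Among 13 tested regulators of Bdnf transcription 0 were called, against 1.46% of all tested genes, with a median of 0.01. Mef2c, a transcription factor of maturing neurons, averaged 130 ± 43.6 CPM under IUGR against 64.8 ± 16.3 CPM in the sham group (SD, n = 4 each), for a log2 fold change of 1.01 (SE 0.27, edgeR adjusted p = 0.111); the groups overlapped at T1-4, and the gene was called without T1-4 (edgeR adjusted p = 0.0272) and with the Wald test of DESeq2 (adjusted p = 0.00616). Rest, which encodes a repressor of neuronal genes, had a log2 fold change of −0.31 (SE 0.17). Of 12 tested genes known to respond to activity or neurotrophins, 0 were called (1.46% of all tested genes were) and 8 had positive log2 fold changes, with a median of 0.24. Dusp6, an ERK phosphatase induced by ERK signalling, had a log2 fold change of 0.67 (SE 0.22, edgeR adjusted p = 0.213) and Vgf, a secreted neuropeptide precursor, one of 1.04 (SE 0.45, edgeR adjusted p = 0.413). Both genes were highest in T1-3, and without it their log2 fold changes were 0.46 (Dusp6) and 0.69 (Vgf). Vgf had 8 to 69 reads per library. In these samples 12 general neuron markers summed to 5400 to 5790 CPM under IUGR, against 4120 to 5200 CPM in the sham group, without overlap. Most of the sum came from Tubb3 and Map2, but the mean log2 CPM of the 12 did not overlap either (7.24 to 7.71 and 6.46 to 7.14). Of the 12, 11 had positive log2 fold changes, with a median of 0.46, and 0 were called. In edgeR 6 had an unadjusted p under 0.05 (11.1% of all tested genes did). By themselves, 2 had groups that did not overlap (7.14% of all tested genes did). The 9 genes of hippocampal neurons and the granule lineage went the other way, with negative log2 fold changes for 8 and a median of −0.34 (0 called). The part of these cells in the values was not tested.

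Of 11 tested genes of the GDNF and CNTF families, the other main neurotrophic factors and their receptors, 0 were called, against 1.46% of all tested genes, and 2 had groups that did not overlap, against 7.14%. Ret, the receptor tyrosine kinase of GDNF family ligands, was at 4.27 (T1-1), 6.33 (T1-3), 3.29 (T1-4) and 1.37 CPM (T1-5) in IUGR and 1.11 (S1-4), 0.952 (S1-6), 0.471 (S3-1) and 0.356 CPM (S3-4) in sham hippocampi. The groups did not overlap, and the log2 fold change of 2.42 (SE 0.53) had an adjusted p of 0.0542 from edgeR, just short of the threshold. Of 15 alternative fits, 2 called Ret: that without T1-5 (edgeR adjusted p = 0.0169) and the Wald test of DESeq2 (adjusted p = 0.00176). The highest adjusted p of these fits was 0.444, from edgeR with the S1 sham samples alone. Ret had 5 to 103 reads per library. Ctf1, the gene of cardiotrophin-1, had a log2 fold change of −0.55 (SE 0.23, edgeR adjusted p = 0.391), with no overlap between the groups.

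**Figure D4:**
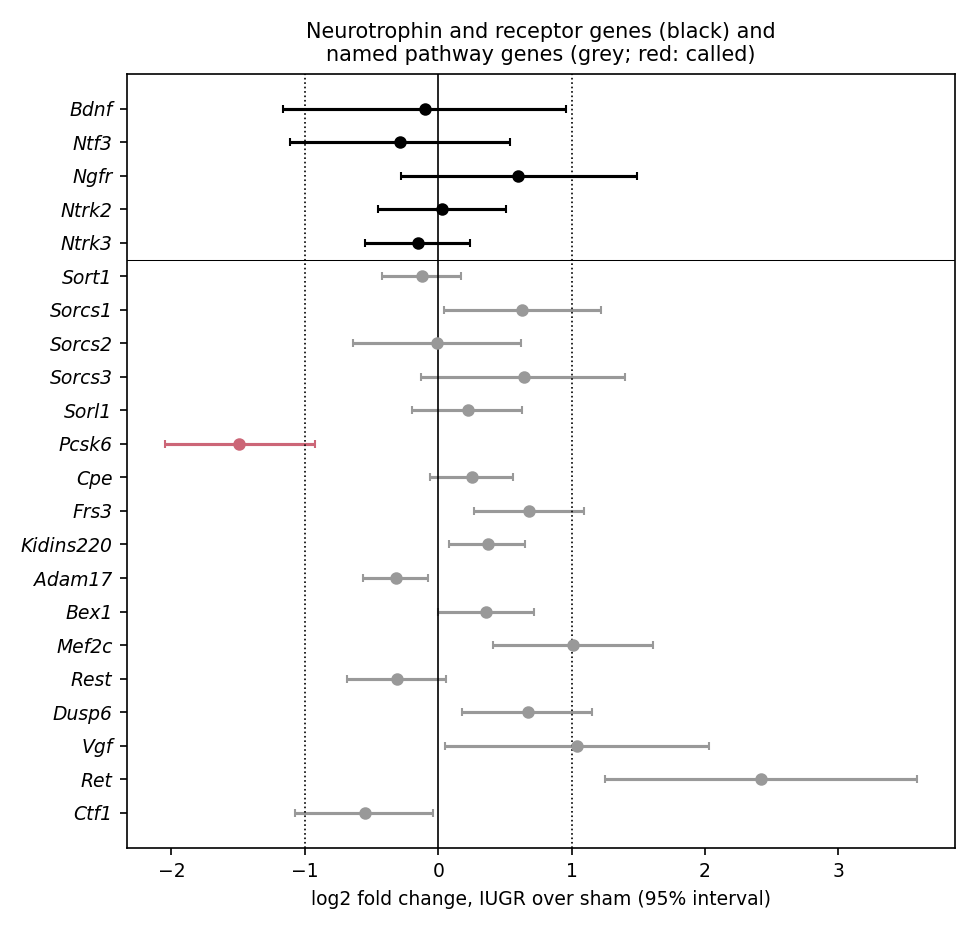
Log2 fold changes (IUGR over sham) with 95% intervals from edgeR for Bdnf, Ntf3, Ngfr, Ntrk2 and Ntrk3 (black) and for the pathway genes named in the text (grey, or red where called); dotted lines mark a log2 fold change of 1 in either direction. The intervals of all 5 neurotrophin and receptor genes span 0, and Pcsk6 is the only gene shown that was called.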

How the data were processed

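Total RNA depleted of ribosomal RNA was sequenced as single reads from stranded libraries. The authors aligned reads to GRCm38 (mm10) and deposited raw read counts per gene; the submitters' processing notes name Novoalign 2.8, and the counting program, annotation and strand setting are not given in the sources used here. Every gene of the table reaches a count of 10 in at least 1 sample. Groups follow the treatment label. Identifiers were matched to GENCODE release M21 (16124 of 16397), which gave gene types, positions and exon lengths. The 13707 protein-coding genes whose mean count was 10 or more but below 50000 were tested in R 4.3.3 with edgeR 4.0.16 (TMM, quasi-likelihood, Benjamini-Hochberg adjustment over all tested genes); standard errors and 95% intervals are those implied by the F statistic. CPM use TMM-adjusted library sizes, and log2 CPM a prior count of 2. The smallest p that the exact permutation test (two-sided, 4 against 4) allows is 0.0286. The labels do not say whether samples came from separate litters, so p-values measure only the spread between these samples. Both edgeR and DESeq2 1.42.0 were tested on simulated data, drawn with the spread per gene that edgeR itself had estimated. By the adjusted p alone, DESeq2 made more false calls there than edgeR. Because the simulation took its spread from edgeR, it cannot show which of them is nearer the truth in these samples.

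Named were the 5 genes, all genes of the list of other family members and sortilin-family receptors, called genes and the 2 genes of smallest p of each pathway list, the 3 genes of most similar pattern, and markers. Alternatives were DESeq2 size factors, upper-quartile scaling, the Wald test of DESeq2, no filter, filterByExpr, each sample left out, sham samples of 1 prefix, and the adjusted p alone. The genes and lists were chosen with earlier results of these data known. Some named genes are not reported here.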

Additional observations from a re-analysis of the deposited data

Results flagged for a closer look

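Among 24 genes checked in each group of 4, 2 values exceeded Dixon's 95% critical value for the gap to the nearest sample over the range of the group, in 48 checks of which chance passes about 1 in 20. Sorcs2, a sortilin-family receptor gene, was at 28.3 CPM in T1-3, against 13.0 to 15.3 CPM in the other IUGR samples. Sorl1, of the same family, was at 46.0 CPM in S1-4, against 68.1 to 72.0 CPM in the other sham samples.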

How the results depend on the processing

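The number of neurotrophin and receptor genes called was 0 under all 16 alternatives, and 1 of them had an unadjusted p under 0.05 in 1 alternative (Ngfr without T1-4, log2 fold change 0.84). Over all genes, 200 were called, 425 with the Wald test of DESeq2, 41 to 298 with each sample left out, 0 with the S1 sham samples alone (1053 at an unadjusted p under 0.05) and 2 with the S3 samples alone. The log2 fold changes with each sample left out ranged from −0.64 to 0.16 for Bdnf, −0.48 to −0.06 for Ntf3, 0.16 to 0.84 for Ngfr, −0.14 to 0.21 for Ntrk2, −0.28 to −0.06 for Ntrk3 and −0.30 to 0.17 for Sorcs2. With the S1 samples alone, the sign turned for Bdnf (0.45), Ntrk2 (−0.15), Ntrk3 (0.01) and Sorcs2 (0.01), and with the S3 samples alone for Sort1 (0.01). Sorcs2 also turned with DESeq2 size factors, upper-quartile scaling and the Wald test of DESeq2 (0.02 each) and with filterByExpr (0.03). The cause was not tested. Pcsk6 was not called with either sham prefix alone (log2 fold change −1.48 in both). No paired analysis was possible because the labels do not pair IUGR with sham samples. Bdnf had 20 to 86 and Ntf3 16 to 49 reads per library, and the part of depth in the width of their intervals was not tested.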
